A study of Mus musculus with 18 samples.

Results

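The genes described here are 48 ribosome biogenesis factors, the proteins that transcribe, cut, modify and fold ribosomal RNA (rRNA) and assemble it into the subunits of the ribosome. They were chosen by gene symbol, from a list of names that was drawn up with earlier results of these data known. All 48 were found among the 19057 gene symbols of the deposited table, and all 48 passed the filter on low values: 10204 genes reached a mean of 1 RPKM (reads per kilobase of transcript, scaled to the size of the library) over the libraries and were tested. The table holds RNA-seq of mouse liver, in 6 groups of 3 libraries. The study asked whether gut microbiota from mice dosed with alginate oligosaccharide (AOS), a sugar chain made from brown algae, change the organs of mice with a model of type 2 diabetes. All mice were male ICR mice, an outbred strain, aged 10 weeks at sampling.

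Mice of the Con group had a regular diet. The HS group was given a high-fat diet and streptozotocin (STZ), a toxin of the insulin-producing beta cells of the pancreas. The A10-FMT and Con-FMT groups had the same diet and STZ and, in addition, a transfer by mouth of small intestinal content from donor mice, which had been dosed with AOS at 10 mg/kg (A10-FMT) or with water (Con-FMT). The content of all donors of one kind was pooled, so each recipient group stands for 1 donor pool. Recipients were not depleted of their own microbiota by any step that the methods describe. Of the 2 remaining groups only the labels speak: A10 had AOS at 10 mg/kg and HS+A10 had the high-fat diet, STZ and AOS at 10 mg/kg. In all, 4 groups shared the diet and STZ (HS, HS+A10, A10-FMT and Con-FMT), and no group had a transfer without them. The sources used here do not say that the 3 libraries of a group came from 3 mice, so the p-values measure the spread between these libraries.

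Ribosomes are built in the nucleolus. RNA polymerase I makes a long precursor rRNA there, small nucleolar RNAs (snoRNAs) in protein complexes (snoRNPs) guide its methylation and pseudouridylation, and a series of assembly factors, many of them helicases and GTPases, mature the small and the large subunit and then leave. The liver makes much protein for the blood, and hepatocytes raise ribosome synthesis when they grow or regenerate. MYC is the best known activator of these genes, and it binds the E-box, a sequence that some of their promoters hold.

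The summed RPKM of the libraries ranged from 692818 to 806937, and relative depth, read from the steps between low values of 10 genes, ranged from 0.945 to 1.08 of the mean. The 6 hepatocyte markers (among them Alb and Apoa1) summed to 33054 to 56368 RPKM, so the label liver held in all libraries. A few libraries stood apart. Con-FMT replicate 3 held mRNAs of pancreatic acinar cells, and 12 markers of these cells made up 3.28% of its RPKM and at most 0.00675% of any other library. Con replicate 3 lay between Con 1 and Con 2 for 98.6% of the genes in which those differed by more than 1 log2 unit, and A10 replicate 3 lay between A10 1 and A10 2 for 96.3%. The corresponding share was between 6.52% and 74.4% in the other 16 libraries. A library that is a blend of the other libraries of its group would lie between them, and whether Con 3 and A10 3 are independent of the others is not given in the sources used here. The SDs and n of Con and A10 take them as independent. The p-values of every comparison do so too, because the spread of each gene was estimated once from all 18 libraries. Counts of called members without Con 3, A10 3 and Con-FMT 3 are given beside each comparison. For these and other counts of a comparison with libraries left out, the share of all tested genes was not computed. They show how the count moved, not whether members lost calls more than other genes did. In whole liver, more RNA per cell and more cells of a type cannot be told apart.

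The members were expressed at low to moderate levels. RPKM is per length, so levels can be set side by side between genes. The highest mean level over the 18 libraries was that of Rcl1, a factor of early small subunit processing, at 75.4 RPKM, followed by Npm1 (nucleophosmin, a nucleolar chaperone) at 70.5 RPKM and Nop10, of the pseudouridylation complex, at 60.9 RPKM. The lowest was that of Noc3l, a large subunit factor, at 1.55 RPKM. The summed level of the 48 members was 601 ± 15.8 RPKM (SD, n = 3) in Con, 598 ± 13.4 in A10, 648 ± 15.3 in HS, 612 ± 3.73 in HS+A10, 607 ± 42.4 in A10-FMT and 751 ± 64.9 in Con-FMT. Con-FMT had the highest sum. Its lowest library, at 694 RPKM, lay above the highest library of all other groups, at 661 RPKM. For 20 of the 48 members, all 3 Con-FMT libraries lay above all 15 other libraries, where 3.62% of all tested genes had this order. These 20 were Nop58, Gar1, Nolc1, Ddx21, Polr1a, Polr1b, Rrp9, Rrp12, Wdr43, Wdr75, Tsr1, Imp3, Wdr12, Nop2, Noc3l, Gnl3, Nip7, Mak16, Brix1 and Rrs1. No other group had all 3 libraries above the other 15 for more than 1 member.

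**Figure D1:**
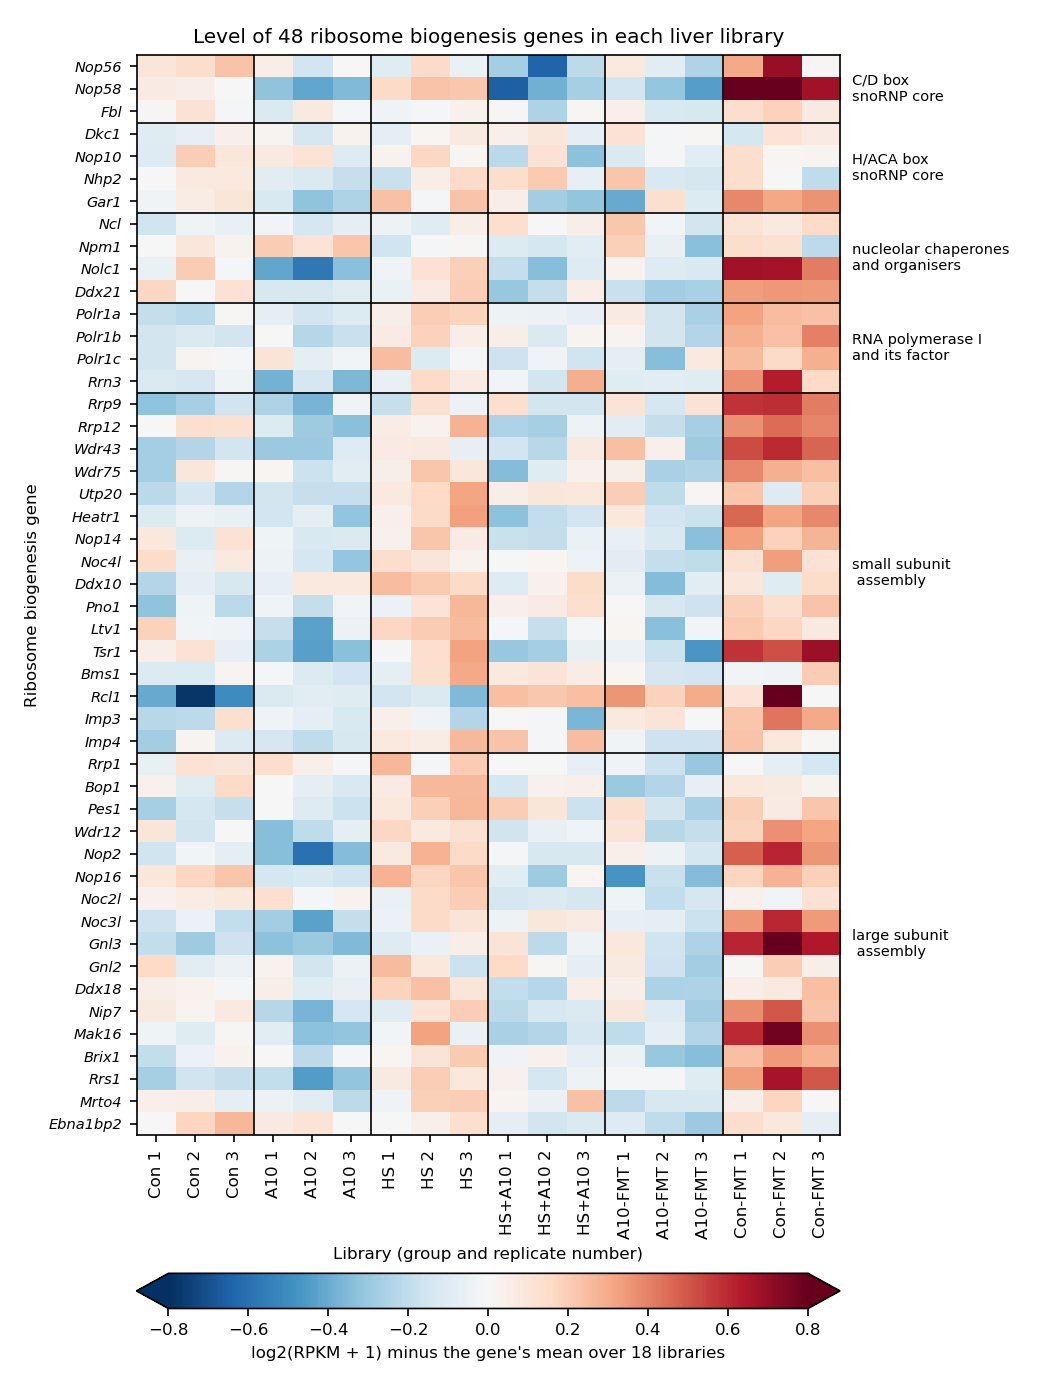
Level of each of the 48 ribosome biogenesis genes (lines, ordered by role) in each of the 18 liver libraries (columns, by group), as log2(RPKM + 1) minus the gene's mean over the 18 libraries. Red is above and blue below that mean, and colours are cut off at 0.8. The 3 Con-FMT columns are red for most genes, and all 3 lie above the other 15 libraries for 20 of 48.

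The member with the largest ratio between its highest and lowest group mean was Nop58, a core protein of the C/D box snoRNPs that guide methylation of rRNA. The gene lies at chr1:59684971-59719044 on the plus strand (GRCm38) and carries 4 snoRNA genes inside it. Its RPKM was 12.4, 12.3 and 11.8 in Con, 9.25, 8.58 and 9.01 in A10, 13.2, 14.0 and 13.8 in HS, 7.12, 8.79 and 9.64 in HS+A10, 10.5, 9.31 and 8.43 in A10-FMT. In Con-FMT it was 22.4, 25.4 and 19.3 RPKM. The 3 groups with AOS or with microbiota of AOS-dosed donors were low, Con and HS were in the middle, and Con-FMT was high, with no library out of place. Of its promoter, 150 bases before the annotated start are shown, from RefSeq's GRCm38.p6 sequence (chr1:59684821-59684970, plus strand), because of this ratio. Capitals mark the core of the sites that ETS family factors bind, read on the opposite strand.

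Nop58: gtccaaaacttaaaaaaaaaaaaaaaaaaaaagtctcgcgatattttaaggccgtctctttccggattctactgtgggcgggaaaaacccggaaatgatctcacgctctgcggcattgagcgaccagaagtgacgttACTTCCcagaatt

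**Figure D2:**
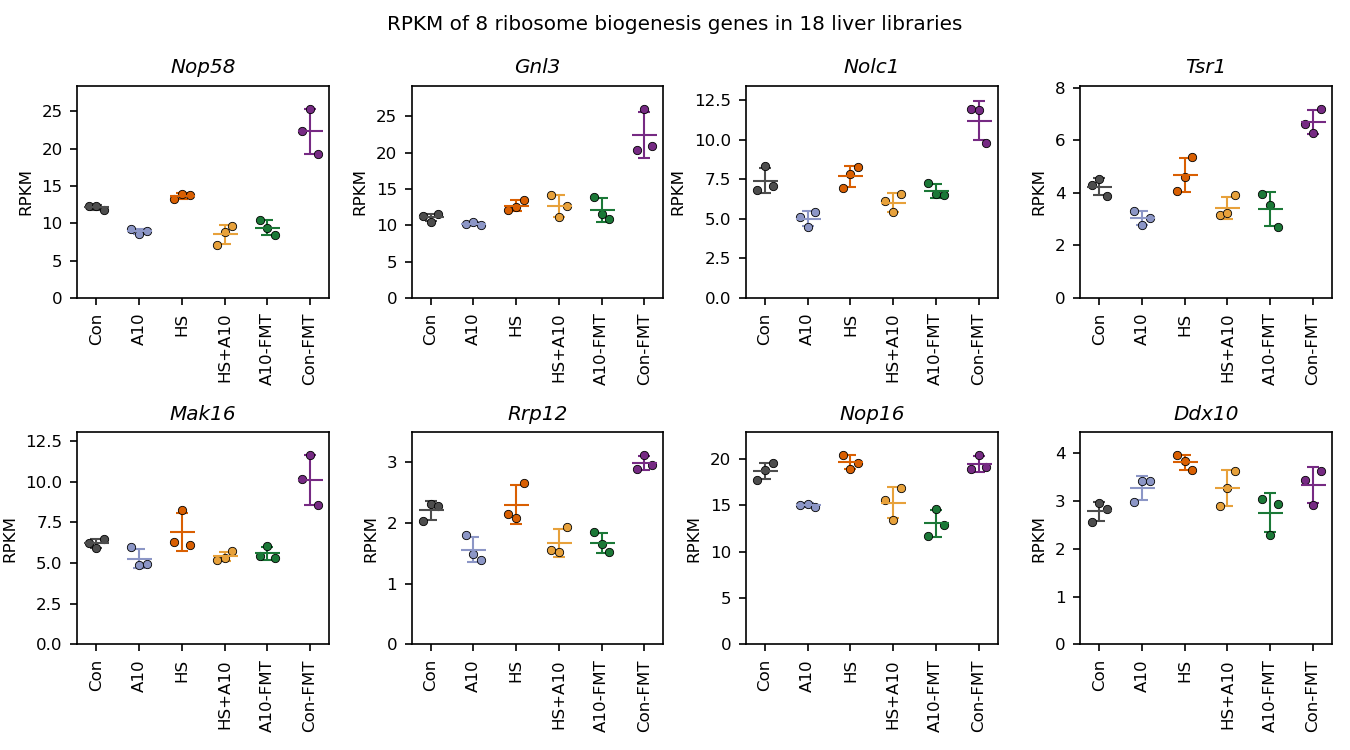
RPKM (linear axis from 0) of 8 ribosome biogenesis genes in the 6 groups, with a point for each library, the group mean as a dash and the SD as bars (n = 3). Con-FMT libraries are the highest in 6 of the genes, Nop58 at 19.3 to 25.4 among them, while Nop16 is about as high in Con, HS and Con-FMT and Ddx10 is highest in HS.

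The first comparison asked what the high-fat diet and STZ did to the liver. In HS the members were slightly higher than in Con, and so were most genes. On the log2(RPKM + 1) scale, the scale of every log2 value below, the median change of the 48 members was 0.13 and that of all tested genes was 0.14. At the level of single genes, 6 members were called higher (limma, adjusted p under 0.05) and none lower, where 15.9% of all tested genes were called higher, 1.87% lower and 17.7% either way. The share of members called higher, 6 of 48, did not exceed that background. In 14 members the HS libraries all lay above the Con libraries, against 32.6% of all tested genes, and in 0 members all below, against 4.17%. At an unadjusted p under 0.05, 11 of the 48 members were higher and 0 were lower, where 34.4% of all tested genes had such a p.

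The called members were 1 RNA polymerase I gene, 3 small subunit factors and 2 large subunit factors. Polr1a, the largest subunit of RNA polymerase I, had 3.56, 3.49 and 4.24 RPKM in Con and 4.38, 4.99 and 4.90 in HS, a log2 change of 0.28 ± 0.0835 (SE) with an adjusted p of 0.0347. The HS libraries all lay above those of Con. Of the small subunit factors, Utp20, a scaffold of the early precursor, had 1.54, 1.68 and 1.5 RPKM in Con and 2.11, 2.28 and 2.67 in HS (log2 change 0.38 ± 0.11, adjusted p = 0.0238). Ddx10, an RNA helicase, had 2.56, 2.96 and 2.83 RPKM in Con and 3.96, 3.84 and 3.65 in HS (log2 change 0.35 ± 0.095, adjusted p = 0.0219). For Ddx10 all HS libraries also lay above the 15 libraries of the other groups. Pno1, which acts late in the maturation of the small subunit, had 18.5, 22.8 and 19.96 RPKM in Con and 22.6, 25.2 and 28.2 in HS, and these ranges overlapped (log2 change 0.30 ± 0.090, adjusted p = 0.0342).

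Both called large subunit factors had groups that did not overlap. Pes1, of the PeBoW complex, had 8.78, 9.66 and 9.37 RPKM in Con and 11.5, 12.4 and 13.1 in HS (log2 change 0.38 ± 0.11, adjusted p = 0.0244). Rrs1, which helps to bring the 5S rRNA into the large subunit, had 6.09, 6.62 and 6.48 RPKM in Con and 7.95, 8.74 and 8.01 in HS (log2 change 0.32 ± 0.086, adjusted p = 0.0206). None of the 3 C/D box, 4 H/ACA box or 4 nucleolar chaperone genes was called. The calls depended on the scaling and on single libraries. With each library scaled to the same median, the median log2 change of the members was -0.03, 0 members were called higher and 1, Ebna1bp2, lower, against 3.90% and 4.76% of all genes (8.66% either way). Sums of markers of other cells were apart as well, with no overlap. The 5 erythroid markers summed to 2886 to 10041 RPKM in HS and 1256 to 1972 in Con (1 of 4 tested called higher). The 8 stellate cell and fibroblast markers summed to 114 to 185 and 74.3 to 85.9 RPKM (2 of 8 called higher). The 6 markers of dividing cells summed to 4.40 to 7.18 and 2.14 to 2.99 RPKM, but only 1 was tested and it was not called. The part of these markers in the result was not tested. No member was called without Con 1 or without HS 2, 1 was without Con 3, 2 were without HS 3, and 1 was without Con 3, A10 3 and Con-FMT 3 together.

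The next comparison asked whether microbiota of AOS-dosed donors changed the HS liver. In A10-FMT the members were lower than in HS, with a median log2 change of -0.22 for the 48 and of -0.16 for all tested genes. At an adjusted p under 0.05, 17 members fell and none rose, where 21.0% of all tested genes were called lower and 2.09% higher. Both large role groups took part: 6 of 16 small subunit factors and 8 of 17 large subunit factors fell. A further 1 of 3 C/D box proteins, 0 of 4 H/ACA box proteins, 1 of 4 nucleolar chaperones and 1 of 4 RNA polymerase I genes did. For 23 members all A10-FMT libraries lay below those of HS, against 32.8% of all tested genes.

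Nop58, with the values given above, had a log2 change of -0.50 ± 0.10 (SE) and an adjusted p of 0.00489. Ddx21, a helicase that links RNA polymerase I to rRNA processing, had 5.99, 6.56 and 7.30 RPKM in HS and 5.40, 4.96 and 5.05 in A10-FMT (log2 change -0.31 ± 0.086, adjusted p = 0.0194). Ddx10 had 3.04, 2.29 and 2.94 RPKM in A10-FMT (log2 change -0.36 ± 0.095, adjusted p = 0.0145). For each of these genes the groups did not overlap.

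The other named members were large subunit factors. The smallest adjusted p belonged to Nop16, with 20.4, 18.9 and 19.6 RPKM in HS and 11.7, 14.6 and 12.9 in A10-FMT (log2 change -0.56 ± 0.084, adjusted p = 0.000822). Bop1, a partner of Pes1 in the PeBoW complex, had 10.4, 11.99 and 11.97 RPKM in HS and 7.80, 8.22 and 9.35 in A10-FMT (log2 change -0.40 ± 0.085, adjusted p = 0.00536). Brix1, which like Rrs1 is needed to load the 5S rRNA, had 9.08, 9.70 and 10.5 RPKM in HS and 8.65, 7.08 and 6.87 in A10-FMT (log2 change -0.34 ± 0.0895, adjusted p = 0.0151). In these genes, too, every A10-FMT library was below every HS library. Rrp1, a nucleolar factor, had 32.5, 26.7 and 31.1 RPKM in HS and 26.3, 23.7 and 21.6 in A10-FMT (log2 change -0.32 ± 0.087, adjusted p = 0.0170). Ddx18, a helicase, had 10.9, 11.3 and 10.2 RPKM in HS and 9.82, 7.80 and 7.82 in A10-FMT (log2 change -0.32 ± 0.094, adjusted p = 0.0240). The groups were apart in both, by less than 1 RPKM at their nearest libraries.

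In 5 members the change was positive (Dkc1, Ncl, Rrp9, Imp3 and Rcl1), and in 1 of them, Rcl1, the groups did not overlap. Rcl1 had 65.3, 67.2 and 56.6 RPKM in HS and 93.1, 82.8 and 89.4 in A10-FMT, an order that 4.59% of all tested genes had in this direction, but it varied among the Con-FMT libraries (78.7, 143 and 73.0 RPKM) and was not called. Most calls in this comparison depended on the scaling. With libraries scaled to the same median, the median log2 change of the members was -0.06, and 1 member (Nop16) was called lower and 2 (Ncl and Rcl1) higher, against 5.06% and 6.26% of all genes. The count of 17 was 4 without A10-FMT 2, 4 without A10-FMT 3, 8 without HS 2 and 5 without HS 3, and 10 without Con 3, A10 3 and Con-FMT 3 together. The summed level of 8 Kupffer cell and macrophage markers moved in the same direction, with 68.4 to 115 RPKM in HS and 46.2 to 58.7 in A10-FMT, and 5 of the 8 were called lower. The erythroid markers had sums of 2886 to 10041 RPKM in HS and 1135 to 2049 in A10-FMT (1 of 4 tested called lower). The 10 other leukocyte markers had 4.95 to 8.37 and 3.88 to 4.18 RPKM (0 of 3 tested called). The part of these cells in the result was not tested.

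Microbiota of control donors were compared with HS in the same way, and these libraries of HS are the same as those above, so both comparisons share their controls. In Con-FMT 15 of the 48 members rose and none fell, where 4.61% of all tested genes were called higher, 19.0% lower and 23.6% either way. Members had a median log2 change of 0.16 and all tested genes one of -0.12. By role, 1 of 3 C/D box proteins, 0 of 4 H/ACA box proteins, 2 of 4 nucleolar chaperones, 0 of 4 RNA polymerase I genes, 6 of 16 small subunit factors and 6 of 17 large subunit factors rose. For 23 members all Con-FMT libraries lay above those of HS, against 7.11% of all tested genes, and for 1, Ddx10, they lay below, against 27.9%.

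The largest change among the named members was that of Gnl3 (nucleostemin), a GTPase of the nucleolus that acts in large subunit assembly and is abundant in stem and growing cells. It had 12.1, 12.5 and 13.5 RPKM in HS and 20.4, 26.0 and 20.8 in Con-FMT, with a log2 change of 0.77 ± 0.10 (SE) and an adjusted p of 0.000208. Nop58 had a log2 change of 0.66 ± 0.10 (adjusted p = 0.000594). Nolc1, a chaperone of snoRNPs on their way to the nucleolus, had 6.98, 7.83 and 8.30 RPKM in HS and 11.98, 11.9 and 9.81 in Con-FMT (log2 change 0.49 ± 0.10, adjusted p = 0.00312). In Gnl3, Nop58 and Nolc1 the lowest Con-FMT library lay above the highest of all other groups.

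Small subunit factors were also among the named genes. Rrp9, a protein of the U3 snoRNP that directs the first cuts of the precursor, had 4.84, 6.23 and 5.43 RPKM in HS and 8.94, 8.99 and 7.83 in Con-FMT (log2 change 0.56 ± 0.11, adjusted p = 0.00266). Wdr43, of the early scaffold that couples transcription to processing, had 6.44, 6.47 and 5.79 RPKM in HS and 9.21, 9.79 and 8.83 in Con-FMT (log2 change 0.51 ± 0.11, adjusted p = 0.00533). Tsr1, a late factor that blocks the premature use of the small subunit, had 4.08, 4.61 and 5.37 RPKM in HS and 6.63, 6.29 and 7.20 in Con-FMT (log2 change 0.44 ± 0.11, adjusted p = 0.0106). None of the Con-FMT values of these genes reached down to an HS value. A caution applies to Tsr1: 32.3% of its exon bases overlap exons of Srr on the opposite strand, the methods state no strand-aware counting, and reads of the pair then cannot be told apart.

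Of the large subunit factors, Mak16 had 6.31, 8.25 and 6.13 RPKM in HS and 10.2, 11.6 and 8.56 in Con-FMT (log2 change 0.50 ± 0.11, adjusted p = 0.00536), and it overlaps Tti2 on the opposite strand over 39.4% of its exon bases. Rrs1 had 9.74, 12.4 and 11 RPKM in Con-FMT (log2 change 0.38 ± 0.086, adjusted p = 0.00570). Both genes, too, were higher in every Con-FMT library than in every HS library. The other 7 called members were Ddx21, Rrp12, Rcl1, Imp3, Nop2, Noc3l and Nip7.

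Scaling each library to the same median called more members, 22 higher and 0 lower, against 8.41% and 12.2% of all genes (20.6% either way). Without Con-FMT 3, the library with pancreatic mRNAs, the count was again 15 higher, and it was 25 with the scaling as well. The count was 14 without Con 3, A10 3 and Con-FMT 3 together, 8 without Con-FMT 2 and 9 without HS 1. The summed level of 10 other leukocyte markers was 4.95 to 8.37 RPKM in HS and 6.65 to 10.9 in Con-FMT, and that of 6 markers of dividing cells was 4.40 to 7.18 in HS and 2.14 to 4.37 in Con-FMT. Of 4 erythroid markers tested 3 were called lower, with a median log2 change of -3.36, though the sums overlapped (2886 to 10041 RPKM in HS and 876 to 3619 in Con-FMT). Stellate cell and fibroblast markers summed to 114 to 185 and 89.8 to 113 RPKM. These are ranges of whole marker lists, and their part in the result was not tested. Con-FMT is 1 group from 1 donor pool, so what its 3 libraries share beside the microbiota cannot be told apart from them.

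Recipients of the 2 donor pools differed in more members than any other pair of groups compared. In A10-FMT 28 of the 48 members were lower than in Con-FMT and none was higher, where 12% of all tested genes were called lower and 6.72% higher. The median log2 change was -0.37 for the members and -0.03 for all genes, and 46 of the 48 changes were negative. All 4 RNA polymerase I genes (Polr1a, Polr1b, Polr1c and the initiation factor Rrn3) were among the 28, with 1 of 3 C/D box proteins, 1 of 4 H/ACA box proteins, 2 of 4 nucleolar chaperones, 9 of 16 small subunit factors and 11 of 17 large subunit factors. For 36 members no library of A10-FMT reached the lowest of Con-FMT, against 19.4% of all tested genes. The reverse order held for 0 members, against 12.1%.

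**Figure D3:**
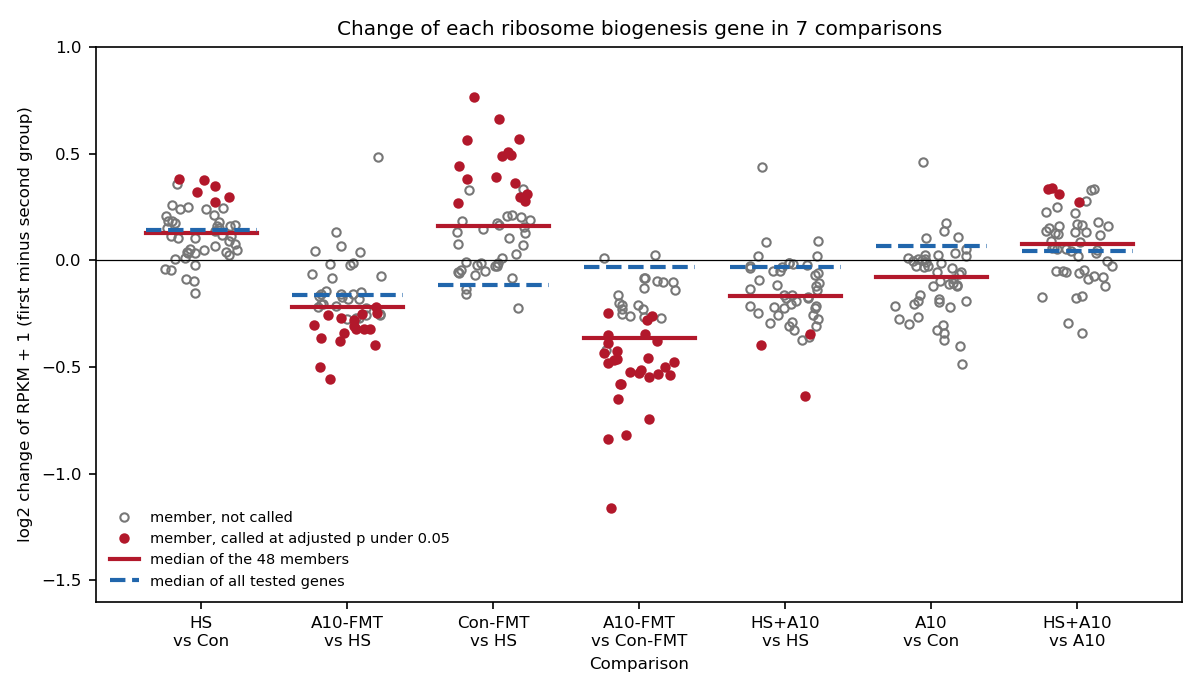
Log2 change of RPKM + 1 of each of the 48 ribosome biogenesis genes in 7 comparisons (points, spread sideways at random), filled where the limma adjusted p is under 0.05. The solid line is the members' median and the dashed line the median of all 10204 tested genes. The lines lie together in HS vs Con (0.13 and 0.14) and apart in A10-FMT vs Con-FMT (-0.37 and -0.03).

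Nop58 had the largest difference, with a log2 change of -1.16 ± 0.10 (SE, adjusted p = 1.46e-05). Gnl3 had 13.9, 11.6 and 10.8 RPKM in A10-FMT, against 20.4 to 26.0 in Con-FMT (log2 change -0.84 ± 0.10, adjusted p = 0.000133). Tsr1 had 3.95, 3.54 and 2.69 RPKM in A10-FMT (log2 change -0.82 ± 0.11, adjusted p = 0.000239). In all of them the groups were well apart. Mak16 had 5.45, 6.05 and 5.31 RPKM in A10-FMT (log2 change -0.75 ± 0.11, adjusted p = 0.000493). Nolc1 had 7.29, 6.57 and 6.49 RPKM in A10-FMT (log2 change -0.65 ± 0.10, adjusted p = 0.000583). Ddx21 had 8.13, 8.20 and 8.16 RPKM in Con-FMT (log2 change -0.58 ± 0.086, adjusted p = 0.000493). The Con-FMT values of Ddx21 were the closest together of any group.

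Rrp12, an adaptor for the export of both subunits, had 2.90, 3.12 and 2.96 RPKM in Con-FMT but 1.85, 1.65 and 1.52 in A10-FMT (log2 change -0.58 ± 0.092, adjusted p = 0.000691). Nop16 had 18.9, 20.4 and 19.1 RPKM in Con-FMT (log2 change -0.55 ± 0.084, adjusted p = 0.000586). Unlike in the members above, the Con-FMT libraries of Nop16 overlapped those of HS, and its A10-FMT libraries lay below both groups. With libraries scaled to the same median, 24 members were lower and 0 higher, against 9.39% and 12.8% of all genes. Leaving out any one library of the 2 groups left 22 to 27 members lower, and 24 were without Con 3, A10 3 and Con-FMT 3. The 10 leukocyte markers summed to 6.65 to 10.9 RPKM in Con-FMT but 3.88 to 4.18 in A10-FMT, and the 8 Kupffer cell markers to 52.5 to 102 and 46.2 to 58.7 RPKM. Their part in the result was not tested.

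**Figure D4:**
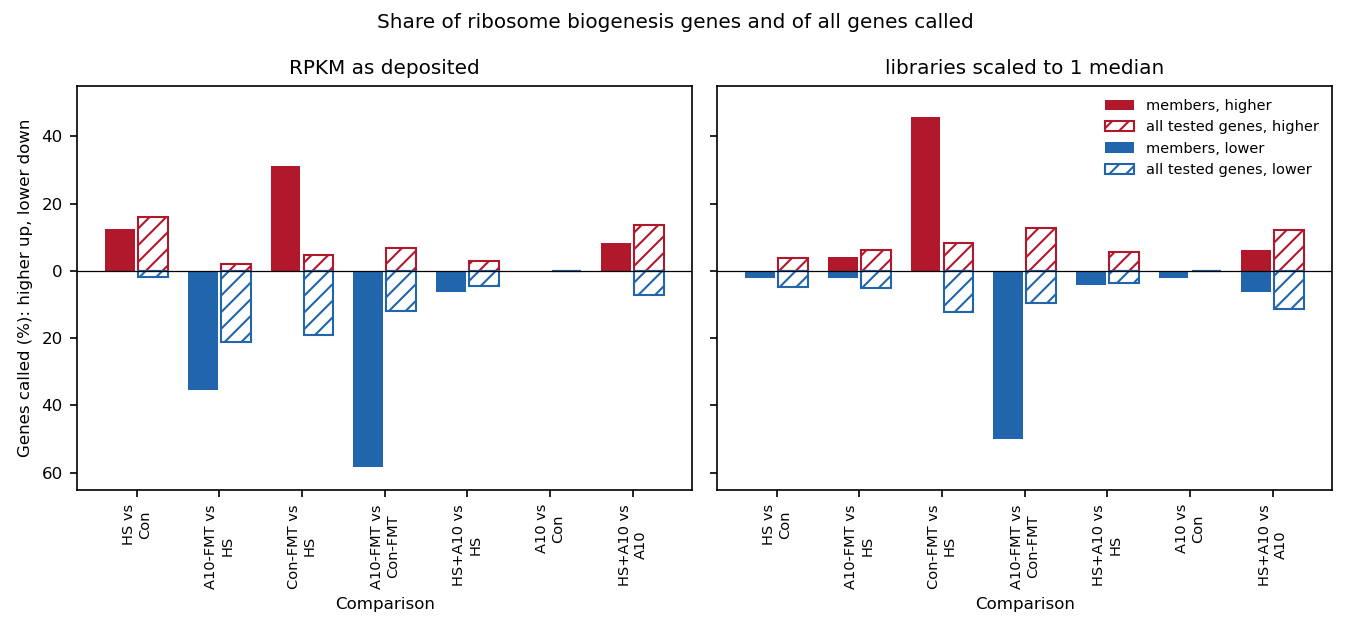
Share of the 48 ribosome biogenesis genes (filled bars) and of all 10204 tested genes (hatched bars) called at a limma adjusted p under 0.05 in 7 comparisons, higher upward and lower downward, in percent of genes on an axis through 0. The left panel uses RPKM as deposited and the right panel libraries scaled to the same median. The bars of A10-FMT vs HS shrink from 17 members lower on the left to 1 on the right, while those of A10-FMT vs Con-FMT stand for 28 members lower on the left and 24 on the right.

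AOS given to the mice themselves was compared in HS mice and in mice whose labels name neither the high-fat diet nor STZ. In HS+A10 3 members were lower than in HS and none was higher, where 4.37% of all tested genes were called lower, 2.95% higher and 7.32% either way. At an unadjusted p under 0.05, 19 of 48 members were lower and 1 higher, where 24.9% of all tested genes had such a p. The median log2 change was -0.17 for the members and -0.03 for all genes, and 43 of 48 changes were negative. Nop58 had a log2 change of -0.63 ± 0.10 (SE, adjusted p = 0.00418). Heatr1, a large scaffold protein that RNA polymerase I transcription also needs, had 3.33, 3.68 and 4.28 RPKM in HS and 2.36, 2.68 and 2.78 in HS+A10 (log2 change -0.40 ± 0.094, adjusted p = 0.0215). Nop16 had 15.6, 13.5 and 16.8 RPKM in HS+A10 (log2 change -0.35 ± 0.084, adjusted p = 0.0251). The groups were apart in all these genes and in 23 members in this direction, against 15.7% of all tested genes. In the other direction 1 member was apart, against 11.6%. Under median scaling 2 members were called lower and 0 higher, against 3.49% and 5.67% (9.16% either way). The count was 7 without HS 1, 1 without HS 2, 1 without HS 3, 1 without HS+A10 1 and 6 without HS+A10 3, and it was 2 without Con 3, A10 3 and Con-FMT 3. The 6 endothelial markers summed to 43.2 to 49.96 RPKM in HS and 58.4 to 71.2 in HS+A10, with 2 of 6 called higher, and their part in the result was not tested.

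In A10 against Con limma called no member, and it called 0.0686% of all tested genes (0.0490% higher and 0.0196% lower). At an unadjusted p under 0.05, 11 of 48 members were lower and 1 higher, where 13.9% of all tested genes had such a p. The smallest adjusted p among the members belonged to Nolc1, with 6.85, 8.36 and 7.09 RPKM in Con and 5.10, 4.49 and 5.47 in A10 (log2 change -0.49 ± 0.10, adjusted p = 0.0747). Nop2, an rRNA methyltransferase of the large subunit, had 6.87, 7.65 and 7.35 RPKM in Con and 5.95, 4.81 and 5.92 in A10 (log2 change -0.34 ± 0.089, adjusted p = 0.147). Nop58 had a log2 change of -0.40 ± 0.10 (adjusted p = 0.148). Though not called, these genes had groups that did not overlap, as did 13 members in this direction, against 5.27% of all tested genes. In the other direction 3 members were apart, against 19.6%. Con 3 and A10 3, which may not be independent, enter this order. The median log2 change was -0.08 for the members and 0.07 for all tested genes. With median scaling 1 member, Nolc1, was called lower and 0 higher, against 0.0294% and 0.0490% of all tested genes (0.0784% either way). Without Con 3, A10 3 and Con-FMT 3, 0 members were called and 29 of 48 changes were negative, against 34 with all libraries. The erythroid markers summed to 1256 to 1972 RPKM in Con and 2112 to 2742 in A10. Of the 4 tested, however, 3 had a negative and 1 a positive change, with a median log2 change of -0.29 and 0 called. The part of these markers in the values above was not tested. For Nop2 and Gnl3 all A10 libraries lay below the other 15, against 0.480% of all tested genes.

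The effect of diet and STZ among mice with AOS was read from HS+A10 against A10. Limma called 4 members higher and none lower, where 13.6% of all tested genes were called higher, 7.28% lower and 20.9% either way. Nop2 (log2 change 0.34 ± 0.089, adjusted p = 0.0146), Noc3l (0.34 ± 0.095, adjusted p = 0.0202), Imp4, of the U3 snoRNP (0.31 ± 0.094, adjusted p = 0.0287), and Rrs1 (0.27 ± 0.086, adjusted p = 0.0355) were the 4. Nop2 had 7.70, 7.03 and 7.05 RPKM in HS+A10, above its A10 values given before. Noc3l had 1.07, 0.87 and 1.2 RPKM in A10 and 1.44, 1.68 and 1.63 in HS+A10, and Imp4 had 8.87, 8.41 and 8.90 in A10 and 11.7, 9.77 and 11.9 in HS+A10. Rrs1 had 6.43, 5.24 and 5.84 RPKM in A10 and 7.72, 6.73 and 7.28 in HS+A10. In all 4 genes the groups did not overlap, and this held for 13 members in this direction, against 26.9% of all tested genes. In the other direction it held for 4 members, against 16.1%. The median log2 change was 0.08 for the members and 0.04 for all genes, and median scaling called 3 members higher and 3 lower, against 12.2% and 11.3%. No member was called without A10 2, 1 was without HS+A10 1, 1 was without HS+A10 3 and 2 were without A10 3. The count was also 2 without Con 3, A10 3 and Con-FMT 3. Sums of markers were apart here too, without overlap. The endothelial markers summed to 39.8 to 50.3 RPKM in A10 and 58.4 to 71.2 in HS+A10 (5 of 6 called higher). The stellate cell and fibroblast markers summed to 83.4 to 93.1 and 117 to 127 RPKM (4 of 8 called higher). The hepatocyte markers summed to 48276 to 55384 and 41168 to 44177 RPKM (2 of 6 called lower). The leukocyte markers summed to 7.16 to 9.16 and 3.53 to 5.01 RPKM, but only 3 of the 10 were tested and 0 called. The markers of dividing cells summed to 2.77 to 3.22 and 3.91 to 4.02 RPKM. Only 1 of these was tested, with a log2 change of 0.06 (limma adjusted p = 0.832). The part of these markers in the result was not tested.

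Whether diet and STZ acted differently with and without AOS was tested as an interaction: limma called no member and 0.00980% of all tested genes, and at an unadjusted p under 0.05 the count was 2 of 48 members, below the 12.9% of all tested genes with such a p. Both were negative (Ddx10 at -0.35 ± 0.13, adjusted p = 0.288, and Heatr1 at -0.29 ± 0.13, adjusted p = 0.375). Noc2l, at -0.22 ± 0.10, had an adjusted p of 0.391. Without Con 3, A10 3 and Con-FMT 3, 0 members were called.

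The comparisons A10 vs Con, HS+A10 vs HS and A10-FMT vs Con-FMT share no library, and each sets a group with AOS, or with microbiota of AOS-dosed donors, against its counterpart without. Counts over all 3 were not among the planned results, and they draw on the group differences already described. In 32 of the 48 members the change was negative in all 3, where this held for 17.4% of all tested genes. It was positive in all 3 for 1 member, Dkc1, the pseudouridine synthase, with log2 changes of 0.01, 0.02 and 0.03, against 22.0% of all tested genes. With median scaling the counts were 35 and 0, against 20.2% and 24.3%, and without Con 3, A10 3 and Con-FMT 3 they were 27 and 1, against 15.6% and 23.6%. In 3 members the 9 libraries with AOS or its microbiota all lay below the 9 others, against 0.274% of all tested genes: Nop58 with 7.12 to 10.5 against 11.8 to 25.4 RPKM, Rrp12 with 1.40 to 1.94 against 2.03 to 3.12 RPKM and Nop16 with 11.7 to 16.8 against 17.78 to 20.42 RPKM. The other members were of mixed sign, among them Rcl1, Npm1, Ncl and Nhp2. The groups of the 3 comparisons did not stand alike. The members' mean log2 level, minus the median of all tested genes, was 0.0742 in A10 and 0.0912 in HS+A10. It was 0.185 in A10-FMT, near HS (0.207) and Con (0.240), and 0.490 in Con-FMT. Against HS with median scaling, A10-FMT had 1 member lower and 2 higher.

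Other genes of the pathway were read from further lists. Against Con-FMT, A10-FMT was lower in 13 of 40 other small subunit factors, 17 of 42 other large subunit factors, 2 of 11 other RNA polymerase I genes, 2 of 10 snoRNP assembly factors and 2 of 14 genes of the rRNA-processing exosome, and higher in none of them. All 42 large subunit factors had a negative change, with a median log2 change of -0.19. The 12% of all tested genes called lower is the share to read these counts against. With median scaling 11 small subunit, 16 large subunit, 1 RNA polymerase I, 2 snoRNP assembly and 2 exosome genes were lower, and 1 RNA polymerase I and 2 snoRNP assembly genes were higher. Nol8, a nucleolar protein, fell from 6.85 ± 0.469 RPKM (SD, n = 3) in Con-FMT to 3.12 ± 0.223 in A10-FMT (log2 change -0.93, adjusted p = 1.73e-05), and Ngdn, a small subunit factor, from 22.7 ± 1.94 to 13.5 ± 0.879 RPKM (log2 change -0.71, adjusted p = 0.000204).

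Against HS, Con-FMT was higher in 5 and lower in 3 of the 40 small subunit factors and higher in 7 and lower in 1 of the 42 large subunit factors, where 4.61% of all tested genes were higher and 19.0% lower. With median scaling these counts were 11 and 1 of 40 and 12 and 0 of 42, against 8.41% and 12.2%. Nol8 had 3.49 ± 0.526 RPKM in HS (log2 change 0.81, adjusted p = 4.68e-05), and Riok2, a kinase of the late small subunit, had 6.41 ± 0.391 RPKM in HS and 11.5 ± 2.43 in Con-FMT (log2 change 0.74, adjusted p = 0.000909). Of the exosome list 0 of 14 genes were higher and 3 lower (Exosc2, Exosc9 and Exosc10), a share near that of all genes, and with median scaling 0 were lower. In addition, 1 of 11 RNA polymerase I genes (Taf1a) and 1 of 10 snoRNP assembly factors (Snu13) were higher. In A10-FMT against HS no gene of these 5 lists was higher, and 11 small subunit, 10 large subunit, 2 RNA polymerase I, 1 snoRNP assembly and 5 exosome genes were lower, where 21.0% of all genes were. Nearly all of these calls were lost with median scaling, which left 1 small subunit, 1 large subunit and 1 RNA polymerase I gene lower and 1 large subunit gene higher. The RNA cytidine acetyltransferase Nat10 was lower than in HS in each of the other diet and STZ groups, from 6.14 ± 0.553 RPKM in HS to 3.49 ± 0.315 in A10-FMT, 4.07 ± 0.658 in Con-FMT and 4.33 ± 0.424 in HS+A10 (adjusted p = 0.000914, 0.00326 and 0.0248).

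HS against Con had 1 of 11 RNA polymerase I, 5 of 40 small subunit, 3 of 42 large subunit, 0 of 10 snoRNP assembly and 1 of 14 exosome genes higher and none lower, where 15.9% of all tested genes were higher. With median scaling none of these lists had a gene higher, and 1 small subunit gene was lower. In HS+A10 against HS the same lists had 1, 5, 1, 1 and 0 genes lower and none higher, where 4.37% of all tested genes were lower. In HS+A10 against A10 they had 0, 2, 6, 1 and 0 genes higher and 1 small subunit gene lower, where 13.6% of all tested genes were higher and 7.28% lower. With median scaling the last counts were 0, 1, 4, 0 and 0 higher and 1, 4, 1, 1 and 1 lower, against 12.2% and 11.3%.

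The last list held 15 regulators of ribosome synthesis. Of these, 5 were higher in HS than in Con, 3 were lower in A10-FMT than in HS, and 2 were higher and 3 lower in Con-FMT than in HS. Of all tested genes 15.9%, 21.0%, 4.61% and 19.0% were called in these ways, and with median scaling the counts were 2, 1, 3 and 2, with 1 more gene higher in A10-FMT than in HS. Between the recipients, 2 were higher and 3 lower in A10-FMT, against 6.72% and 12% of all tested genes. Myc itself was called in no comparison. It had 1.16, 1.42 and 1.30 RPKM in Con, 1.01, 2.93 and 2.39 in A10, 2.83, 1.23 and 1.66 in HS, 4.74, 3.55 and 0.74 in HS+A10, 8.34, 1.16 and 6.72 in A10-FMT. Con-FMT had 14.6, 3.75 and 3.28 RPKM. These Con-FMT libraries lay above those of HS but ranged more widely than the other 15 libraries did (log2 change 1.27 ± 0.57, adjusted p = 0.119). Among its partners, Max had 17.7 ± 0.912 RPKM in Con-FMT, 12.7 ± 2.46 in HS and 11.8 ± 0.843 in A10-FMT, with adjusted p of 0.00999 against HS and 0.00416 between the recipients. The antagonist Mnt was also higher in Con-FMT (2.98 ± 0.689 RPKM) than in HS (1.55 ± 0.263, adjusted p = 0.00772) and A10-FMT (1.53 ± 0.310, adjusted p = 0.00828), and Mxi1, another antagonist, was higher in A10-FMT (11.4 ± 1.66 RPKM) than in Con-FMT (7.73 ± 1.14, adjusted p = 0.00515). The kinase Mtor was higher in HS (8.29 ± 0.313 RPKM) than in Con (5.25 ± 0.0850, adjusted p = 0.000677) and lower in Con-FMT than in HS (6.22 ± 0.844 RPKM, adjusted p = 0.00529). It was also lower than in HS in A10-FMT (6.89 ± 0.581 RPKM, adjusted p = 0.0491), but higher in HS+A10 (10.5 ± 0.702 RPKM, adjusted p = 0.0390).

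Promoter sequence was found for 41 of the 48 members, as 250 bases before and 50 after the start in RefSeq's GRCm38.p6 annotation. The E-box CACGTG, which reads the same on both strands, was in the window of 9 of the 41 (22.0%), against 12% of the 8130 tested genes and 8.09% of all 27025 genes with a promoter. The ETS core GGAAGT, on either strand, was in 24 of 41 (58.5%), against 33.1% of tested genes and 26.5% of all. The E-box was about as frequent among called and other members: 5 of the 24 members with a promoter that were lower in A10-FMT than in Con-FMT held it, and so did 4 of the 17 that were not called. The windows of these 9 genes held 10 sites, a pair of them in Rrn3. The sites are shown as 30 bases each, in the direction of the gene, with the E-box in capitals, since MYC is known to bind this sequence. A match of letters does not say that a factor is bound.

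Rrn3 (chr16:13780472-13780501, plus strand): gagcgccaaggtCACGTGcacacgcctcta
Rrn3 (chr16:13780639-13780668, plus strand): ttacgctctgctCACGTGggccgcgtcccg
Wdr43 (chr17:71616220-71616249, plus strand): cgcccgggcgaaCACGTGgctgccgcggag
Utp20 (chr10:88826765-88826794, minus strand): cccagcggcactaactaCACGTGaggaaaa
Pno1 (chr11:17211540-17211569, minus strand): tgcgctgtacaaccacgCACGTGttcctct
Ltv1 (chr10:13193092-13193121, minus strand): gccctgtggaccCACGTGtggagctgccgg
Tsr1 (chr11:74898092-74898121, plus strand): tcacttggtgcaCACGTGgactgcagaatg
Imp4 (chr1:34439696-34439725, plus strand): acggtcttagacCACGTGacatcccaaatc
Pes1 (chr11:3963965-3963994, plus strand): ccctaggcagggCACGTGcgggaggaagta
Nop2 (chr6:125131811-125131840, plus strand): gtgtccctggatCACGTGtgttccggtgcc

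In 6 of the 9 genes the E-box lay after the start, between 2 and 37 bases into the transcript (Wdr43, Utp20, Pno1, Ltv1, Tsr1 and Pes1). It lay 215 and 48 bases before the start in Rrn3, 121 before it in Imp4 and 60 before it in Nop2. Rrn3, Wdr43, Pno1, Tsr1 and Nop2 were the 5 that were lower in A10-FMT than in Con-FMT. Neither Nop58, Gnl3 nor Nop16, 3 of the members with the clearest differences between groups, held an E-box in this window.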

How the data were processed

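Poly(A) RNA of liver was sequenced by the authors. By the methods, reads were mapped to reference genes with SOAPaligner and the authors deposited 1 table of RPKM per gene and library, with replicates kept apart; the labels also name Bowtie 0.12.2 and the mm10 build, with no role given. Read numbers and strand-aware counting are not given in the sources used here, so counting error cannot be stated for any value, and the number of libraries limits the precision. No column was left unused. The 26 symbols turned into dates and the 3 duplicated ones were no members.

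From the deposited RPKM, log2(RPKM + 1) was tested with limma 3.58.1 in R 4.3.3: 1 mean per group, all 18 libraries, a trend in the variance, 2-sided, Benjamini-Hochberg over the 10204 genes that reached a mean of 1 RPKM, called at an adjusted p under 0.05. Log2 changes understate the change of low genes. The test of the methods (DEGseq) does not use replicate spread and was left out. Groups come from the labels. The procedure was tested on simulated data with independent noise in each gene. These data had no shift of a whole library, so they say nothing about how calls depend on scaling. The members and the lists were chosen with earlier results of these data known, so no p is given for a list. Named with a test were, in each comparison, up to 8 called members of smallest adjusted p (the 3 smallest where fewer than 3 were called), up to 3 called genes of each further list, and Myc. Alternatives were another pseudocount, filter, scaling, variance model, threshold or set of libraries, and the replicate number as a block. Positions are from GENCODE M21 and promoters from RefSeq, both GRCm38. Figures used matplotlib 3.10.9.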

Additional observations from a re-analysis of the deposited data

How the results depend on the processing

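No change of a named member turned its sign in any alternative: of 741 values for 43 pairs of a named gene and a comparison, 584 stayed on the same side of the threshold, 155 lost and 2 gained the call. Only another pseudocount, another scaling or a library left out of a compared group could alter a log2 change. The other alternatives kept the differences between group means, so a sign could not turn in them. The calls of HS vs Con and A10-FMT vs HS depended on how libraries were scaled. The count of members called was 1 in HS vs Con, 3 in A10-FMT vs HS and 1 in A10 vs Con with median scaling, and 1, 3 and 1 with quantile normalization, which called 23 in Con-FMT vs HS and 5 in HS+A10 vs HS. A mean of at least 5 RPKM, which leaves out low members, gave 3 in HS vs Con and 18 in A10-FMT vs Con-FMT. A fit of 12 libraries gave 3 in HS vs Con and 10 in A10-FMT vs HS. Fits of only the compared groups gave 2 in HS vs Con, 3 in A10-FMT vs HS, 5 in Con-FMT vs HS, 14 in A10-FMT vs Con-FMT and 0 in HS+A10 vs HS. At an adjusted p of at most 0.001 with a log2 change of at least 1, 1 member was called in A10-FMT vs Con-FMT and 0 in each other comparison. In alternatives chosen after seeing the data, without Con 3, A10 3 and Con-FMT 3, 1 was called in HS vs Con, 10 in A10-FMT vs HS and 2 in HS+A10 vs A10, and median scaling without Con-FMT 3 called 25 in Con-FMT vs HS. Leaving out 1 library gave 0 to 6 in HS vs Con, 4 to 22 in A10-FMT vs HS, 8 to 15 in Con-FMT vs HS, 22 to 27 in A10-FMT vs Con-FMT, 1 to 7 in HS+A10 vs HS, 0 to 5 in HS+A10 vs A10 and 0 in A10 vs Con and in the interaction. The sources used here do not say that replicate numbers pair the libraries, and pairing was not tested. Over 45 pairs of the same number in different groups r ran from -0.126 to 0.262, with 12 over 0.1, and 10 of 18 libraries correlated best with their own number. With that number as a block the counts were 6, 15, 13, 26, 3, 0, 3 and 0, in the order of the comparisons in the report. Apart from median scaling of all 18 libraries, the share of all tested genes called was not computed for these counts. Where a value moved, the cause was not tested.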

Other observations

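The 3 comparisons that set AOS, or microbiota of AOS-dosed donors, against their counterpart were also averaged into 1 contrast, chosen after seeing the data. In it 29 of the 48 ribosome biogenesis factors were lower and 0 higher (limma, adjusted p under 0.05), against 11.5% and 11% of all tested genes, with a median log2 change of -0.20 for the members. With libraries scaled to the same median 29 were lower and 0 higher, against 11.6% and 15.8%, and without Con 3, A10 3 and Con-FMT 3 the count was 21, against 6.67%. Nop58 had the smallest adjusted p, with an average log2 change of -0.73 ± 0.060 (SE, adjusted p = 3.02e-05), followed by Nolc1 at -0.48 ± 0.058 (adjusted p = 0.000161) and Nop16 at -0.40 ± 0.049 (adjusted p = 0.000176). Over A10 vs Con and HS+A10 vs HS alone, where AOS was given to the mice themselves, 11 members were lower and 1 (Rcl1) higher, against 3.28% and 5.15% of all tested genes. With median scaling 13 were lower and 0 higher in this average, against 4.56% and 6.44%.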
